A study of Mus musculus with 8 samples.

Results

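The TNF superfamily pairs small trimeric ligands, most of them anchored in the membrane, with receptors that signal to survival, inflammation or cell death. The members described here are the protein-coding mouse genes with a Tnfsf or Tnfrsf symbol followed by a digit, together with Tnf, Lta, Ltb, Ltbr, Fas, Cd40, Edar and Eda2r. This rule gave 39 of the 55414 gene identifiers in the count table, and 32 of the 39 had enough counts to be tested among 14458 genes. Of the 39, 14 encode ligands, 6 encode receptors with a death domain, 15 encode receptors that bind TRAF adaptors without a death domain, and 3 encode decoy receptors. Tnfrsf26 was not assigned a role.

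The RNA came from PyMt mammary tumors, grown from a cell line first taken from an MMTV-PyMt mouse tumor. In that transgene the mammary tumor virus promoter drives the polyoma middle T oncogene. The line was implanted in the inguinal mammary fat pad of wild-type female C57BL/6 mice, which were 6 to 8 weeks old according to a figure legend of the study. One group of 4 tumors received 20 nmol of calcipotriol, a vitamin D analog, on the skin every 2 days from 2 days after implantation. The other 4 tumors received the solvent alone, EtOH, on the same schedule. Tumors were taken 24 hours after the last application, and each tumor gave 1 library of 19685397 to 25084715 counts. A single implanted line stands for the tumor cells of both groups, and the host animals kept their own immune cells. The labels give the cell type as epithelial, but whole tumors also hold stroma and immune cells. Of the epithelial markers, Krt8 was at 593 ± 67.4 CPM (SD, n = 4) in EtOH-treated tumors, whereas Epcam had 0, 0, 106 and 65 counts in EtOH-treated and 38, 26, 398 and 536 counts in calcipotriol-treated tumors. Levels are given as CPM, for which TMM scaled the libraries on the assumption that most genes do not differ.

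A receptor with a death domain can recruit Fadd or Tradd and start caspase activation, while a receptor that binds TRAF proteins leads mainly to NF-κB and kinase signaling. Decoy receptors bind a ligand without passing a death signal to the cell. In the mammary gland the family is known for Tnfsf11 (RANKL), which acts on Tnfrsf11a (RANK) in hormone-driven growth of the epithelium.

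Libraries of a group did not all stand equally close. In values per tumor, replicates 1, 2, 3 and 4 are given in that order for EtOH and replicates 1, 5, 6 and 7 for calcipotriol. The mean squared difference between a pair of tumors, in units of counting error, was 44.6 for EtOH replicates 1 and 2 and 20.5 for replicates 3 and 4, but 84.7 to 108 for pairs drawn from both of these sets. Calcipotriol replicates 6 and 7 were the closest pair of their group, at 43.7. Replicate 5 lay at 83.1 from replicate 6 and at 96.7 from replicate 7, and pairs that included replicate 1 lay at 97.5 to 133. Calcipotriol replicate 1 had the highest CPM of its group for 17 of the 32 tested members, and for 31% of all genes tested. Results for several genes are also given without it.

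No member passed both thresholds of edgeR's quasi-likelihood test, an adjusted p (Benjamini-Hochberg over all genes) under 0.05 with a log2 fold change of 1 or more in either direction, which 2.02% of all genes passed. On adjusted p alone 1 member passed, Tnfrsf23, against 2.74% of all genes. At an unadjusted p under 0.05 there were 4 members, Tnfrsf23, Tnfsf10, Tnfsf8 and Ltbr, or 4 of 32 against 18.4% of all genes. With DESeq2, 3 members passed on adjusted p (Tnfrsf23, Tnfsf10 and Tnfsf8), where 8.21% of all genes did. Of these, Tnfsf10 and Tnfsf8 passed both DESeq2 thresholds, against 4.45% of all genes. limma-voom gave 1 member on adjusted p, Tnfrsf23, against 2.73%, and 0 past both thresholds, against 1.90%. The log2 fold change, calcipotriol over EtOH, was positive for 19 of the 32 members and negative for 13, with a median of 0.17 beside 0.0188 for all genes tested. In 4 members (Tnfrsf23, Tnfsf10, Ltbr and Tnfrsf4) every calcipotriol-treated tumor lay above every EtOH-treated tumor, a pattern shown by 6.32% of all genes. Tnfrsf4 had 2, 0, 7 and 10 counts with EtOH, so it was tested only because of the treated tumors, and its pattern carries no weight here. Tnfsf8 was the 1 member with every calcipotriol-treated tumor below, and 6.16% of all genes had that pattern.

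**Figure D1:**
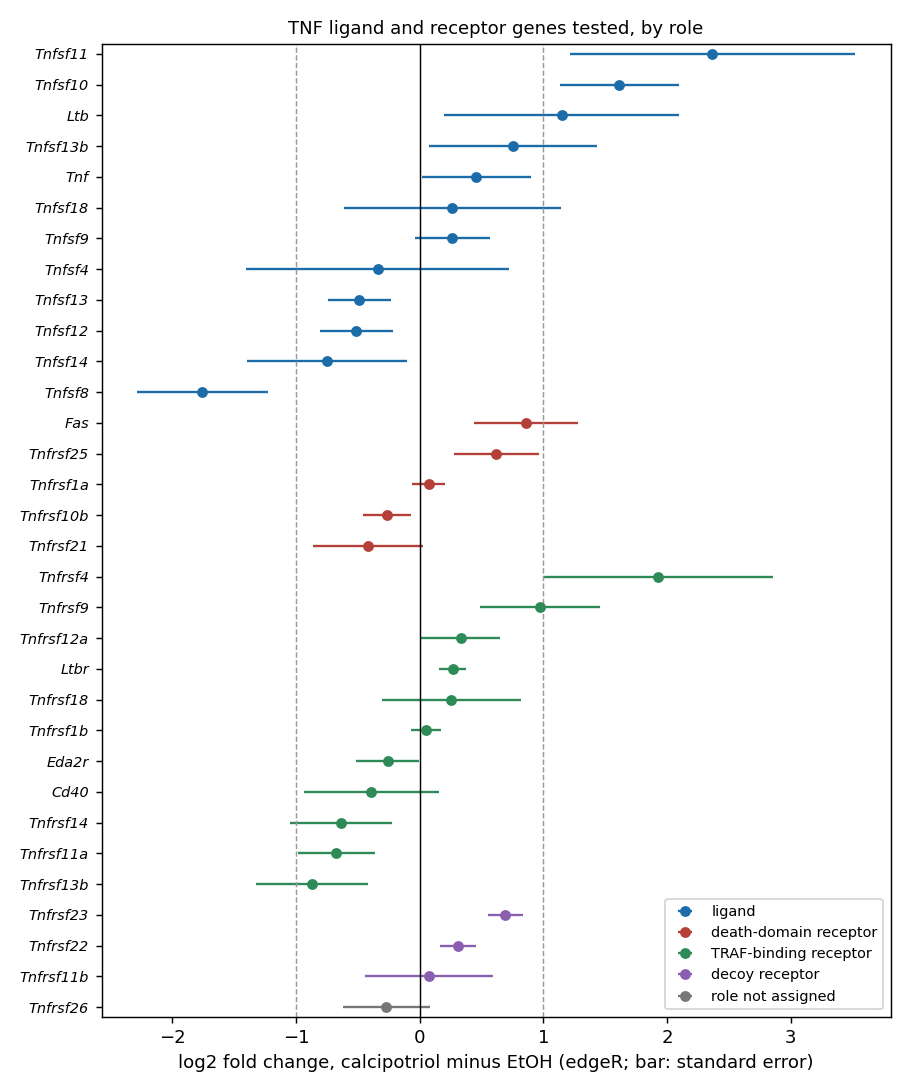
Log2 fold change (calcipotriol minus EtOH) of the 32 members tested, one point per gene with its standard error from edgeR, grouped by role; dashed lines mark the threshold of 1 in either direction. Tnfrsf23 has a narrow error around 0.69, while Tnfsf11, Tnfrsf4 and Tnfsf4 have wide ones.

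The family transcripts were mainly those of receptors. Summed over members, ligands gave 40.1, 37.4, 51 and 38.3 CPM in EtOH-treated tumors and 57.7, 36.3, 38.1 and 36.4 CPM in calcipotriol-treated tumors. Receptors summed to 1293, 1261, 871 and 902 CPM with EtOH and to 1098, 1079, 1093 and 1081 CPM with calcipotriol. Both sums overlapped between the groups.

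Per length, with CPM divided by the exon length in kb, the highest levels in EtOH-treated tumors were those of Tnfrsf21, at 105 ± 69.9 CPM per kb (SD, n = 4), Tnfrsf12a, at 68.8 ± 33.1, and Tnfrsf1a, at 52.5 ± 6.08. Their spreads overlapped, so the order among them is not settled by 4 tumors. Next were Ltbr, at 32.5 ± 2.57 CPM per kb, and Tnfrsf1b, at 26.4 ± 1.25. The highest mean ligand level per length was that of Tnfsf12, at 7.03 ± 0.717 CPM per kb, close to Tnfsf13, at 6.85 ± 0.266. The spread of Tnfsf9, at 5.37 ± 1.93 CPM per kb, overlapped both, so the order of these ligands is not settled either.

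Among the ligands, 7 of the 12 tested had a positive and 5 a negative log2 fold change. Tnfsf10 (chr3:27317028-27342427, forward strand, GRCm38) encodes TRAIL, a ligand that can trigger apoptosis through its death receptor. Its level was 1.51, 0.925, 3.08 and 2.12 CPM in the EtOH-treated tumors and 10.7, 3.84, 4.23 and 4.66 CPM in the calcipotriol-treated tumors. The groups did not overlap, and calcipotriol replicate 1 stood well above the other tumors. The log2 fold change was 1.61 ± 0.48 (SE, with adjusted p = 0.106 in edgeR). DESeq2 gave an adjusted p of 0.0200 and limma-voom 0.136. Without calcipotriol replicate 1 the log2 fold change was 1.15 (adjusted p = 0.182 from edgeR), and the groups still did not overlap. In a bulk tumor, a change in the number of cells of a type and a change in RNA per cell cannot be told apart.

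Tnfsf8 (chr4:63831308-63861347, reverse strand) encodes the CD30 ligand. It was at 2.14, 1.9, 3.6 and 3.79 CPM with EtOH and at 1.51, 0.731, 0.529 and 0.594 CPM with calcipotriol. All treated tumors lay below all EtOH-treated tumors, with calcipotriol replicate 1 the nearest to them. Its log2 fold change was -1.76 ± 0.53 (SE, with adjusted p = 0.107 in edgeR), and adjusted p was 0.0202 with DESeq2 and 0.119 with limma-voom. Without calcipotriol replicate 1 it was -2.20 (standard error 0.54, adjusted p = 0.0407 from edgeR) and passed both thresholds. Of the 8 fits that left out 1 tumor, 1 called Tnfsf8, the one without calcipotriol replicate 1. Over the 8 fits the log2 fold change of Tnfsf8 was -2.20 to -1.59 and its adjusted p from edgeR 0.0407 to 0.273. Its receptor, Tnfrsf8 (CD30), had 5, 0, 4 and 19 counts with EtOH and 7, 6, 9 and 21 with calcipotriol, too few to be tested.

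Macrophage markers did not all follow Tnfsf8 across the tumors. All 6 had negative log2 fold changes, and Adgre1 and Csf1r passed both thresholds, with log2 fold changes of -1.24 (adjusted p = 0.0325 from edgeR) and -1.64 (adjusted p = 0.0374 from edgeR). The 6 summed to 1712, 1725, 2012 and 2092 CPM with EtOH and to 1503, 897, 885 and 784 CPM with calcipotriol. C1qa was their most abundant gene, none was at 0, and calcipotriol replicate 1 had the highest sum of its group. Mrc1 was instead at its lowest in that tumor, at 181 CPM, and Cd68, Mrc1 and C1qa overlapped between the groups. Without calcipotriol replicate 1, 4 markers passed both thresholds as lower (Adgre1, Csf1r, C1qa and C1qb), where 4.33% of all genes passed. Their part in the values of Tnfsf8 was not tested.

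Tnfsf12 (TWEAK), the ligand of Tnfrsf12a, and Tnfsf13 (APRIL), a B cell and plasma cell factor, lie next to each other on chromosome 11 and share exons with the read-through gene Tnfsfm13. Of their exon bases, 48.3% and 60% lie in Tnfsfm13, so the authors' counting could have split these reads in more than one way. Of the exon bases of Tnfsf13, 13.5% lie in an antisense gene, Tnfsf13os. Tnfsf12 was at 10.3, 11.4, 11.6 and 9.26 CPM with EtOH and at 12.3, 6.81, 4.9 and 5.77 CPM with calcipotriol. Tnfsf13 was at 11.1, 11.7, 10.7 and 11.4 CPM with EtOH and at 11.5, 5.62, 8.8 and 6.02 CPM with calcipotriol. In both, calcipotriol replicate 1 lay within or above the EtOH values and the other 3 treated tumors lay below all of them. The log2 fold changes were -0.51 ± 0.30 (SE, with adjusted p = 0.388 in edgeR) for Tnfsf12 and -0.49 ± 0.25 (SE, with adjusted p = 0.337 in edgeR) for Tnfsf13. Without calcipotriol replicate 1 they were -0.87 (adjusted p = 0.0511 from edgeR) and -0.72 (adjusted p = 0.101 from edgeR). Tnfsfm13 itself was at 8.8, 12.2, 6.2 and 7.5 CPM with EtOH and at 5.56, 4.48, 4.04 and 3.31 CPM with calcipotriol. Its groups did not overlap, and its log2 fold change was -0.996 ± 0.29 (SE, with adjusted p = 0.100 in edgeR), with 0.0283 as the adjusted p from DESeq2 and 0.119 from limma-voom. With the counts of these genes summed, in an alternative chosen after seeing the data, the log2 fold change was -0.63 (adjusted p = 0.151 from edgeR).

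Tnfsf11 (RANKL) was low, with 8, 0, 39 and 2 counts in EtOH-treated and 7, 104, 50 and 80 counts in calcipotriol-treated tumors. Calcipotriol replicates 5, 6 and 7 lay above all EtOH-treated tumors, but replicate 1 lay among them. The log2 fold change was 2.37 ± 1.15 (SE, with adjusted p = 0.307 in edgeR), and 2.74 without calcipotriol replicate 1 (adjusted p = 0.171 from edgeR). It was 4.05 without EtOH replicate 3 (adjusted p = 0.141 from edgeR), the EtOH-treated tumor with the highest Tnfsf11 level. The lowest value among the fits that left out 1 tumor was 1.95, without calcipotriol replicate 5 (adjusted p = 0.555 from edgeR). Tnf, the founding inflammatory cytokine of the family, was at 3.89, 2.14, 0.932 and 3.09 CPM with EtOH and at 3.46, 3.29, 3.36 and 3.69 CPM with calcipotriol. The treated tumors were close together and lay within the wider EtOH range. Its log2 fold change was 0.46 ± 0.44 (SE, with adjusted p = 0.634 in edgeR).

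The remaining ligands overlapped between the groups. Tnfsf9, the ligand of Tnfrsf9, was at 6.93 ± 2.49 CPM (SD, n = 4) with EtOH and 8.32 ± 2.19 CPM with calcipotriol, for a log2 fold change of 0.26 ± 0.30 (SE, with adjusted p = 0.695 in edgeR). Of its exon bases 14.9% lie in Gm11110 on the opposite strand, so its count is uncertain. Calcipotriol replicate 1 was its highest tumor, and the log2 fold change was 0.0653 without it (adjusted p = 0.931 from edgeR). Ltb, which joins Lta in the membrane lymphotoxin that binds Ltbr, had 6, 0, 23 and 5 counts with EtOH and 26, 17, 16 and 16 with calcipotriol, and its log2 fold change was 1.15 ± 0.95 (SE, with adjusted p = 0.566 in edgeR). It was 2.21 without EtOH replicate 3 (adjusted p = 0.325 from edgeR) and 0.74 without EtOH replicate 2 (adjusted p = 0.710 from edgeR). Tnfsf4 (OX40 ligand), Tnfsf18 (GITR ligand), Tnfsf13b (BAFF) and Tnfsf14 (LIGHT) had log2 fold changes of -0.34, 0.26, 0.75 and -0.75, with standard errors of 1.06, 0.88, 0.68 and 0.64. With calcipotriol replicate 1 left out they were 0.0769, 0.61, 0.23 and -0.64. The log2 fold change of Tnfsf4 was -1.34 without calcipotriol replicate 7 and -1.54 in limma-voom, and that of Tnfsf18 was 0.96 without EtOH replicate 3. Tnfsf13b had 92, 27, 49 and 9 counts with calcipotriol, the most in replicate 1. Tnfsf14 was at 5.06 CPM in EtOH replicate 3, its highest tumor, and its log2 fold change was -0.0613 without EtOH replicate 3 (adjusted p = 0.976 from edgeR). Lta totaled 10 counts in 4 EtOH-treated and 30 in 4 calcipotriol-treated tumors, and Tnfsf15 (TL1A) had 1 and 4, so neither was tested. Of ligands outside the symbol rule, Fasl, the ligand of Fas, and Cd70, the ligand of Cd27, had 0 counts in all 8 tumors. A count of 0 allows up to 3 counts, or 0.119 to 0.146 CPM depending on the tumor, and this limit covers counting error alone. Cd40lg, the ligand of Cd40, had 3 counts in calcipotriol replicate 6 and 0 in the other tumors. Of the 8 family genes outside the symbol rule, 3 were tested, with Tnfsfm13 the 1 that DESeq2 called on adjusted p, against 8.21% of all genes. Eda, the ligand of Edar and Eda2r, had 0, 0, 7 and 0 counts with EtOH and 0, 0, 4 and 0 with calcipotriol.

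Of the death-domain receptors, 5 of 6 were tested and none had groups that did not overlap. Tnfrsf21 (DR6) was at 665, 696, 194 and 173 CPM with EtOH and at 202, 384, 314 and 391 CPM with calcipotriol. EtOH replicates 1 and 2 were above, and replicates 3 and 4 below, every calcipotriol-treated tumor, for a log2 fold change of -0.42 ± 0.44 (SE, with adjusted p = 0.668 in edgeR). This split of the EtOH-treated tumors is the one seen across all genes, and several marker lists followed it. The 5 neutrophil markers summed to 88.1, 95.9, 31.2 and 29.9 CPM with EtOH. With calcipotriol they summed to 38.1, 144, 64.7 and 45.9 CPM. Of the 4 neutrophil markers tested, 2 had positive and 2 had negative log2 fold changes. The 7 endothelial markers summed to 292, 309.6, 135 and 123 CPM with EtOH and to 102, 48.7, 67.8 and 71.9 CPM with calcipotriol. All 7 had negative log2 fold changes and 5 passed both thresholds (Pecam1, Kdr, Tie1, Robo4 and Clec14a), Cdh5 was the most abundant, and none was at 0. limma-voom called 2 of the 7 on adjusted p, Kdr and Robo4. In edgeR without calcipotriol replicate 1, 5 also passed both thresholds, with Cdh5 in place of Clec14a. The 4 skeletal muscle markers, with Acta1 the most abundant, summed to 0.73, 0.925, 32.6 and 33.1 CPM with EtOH and to 0.516, 0.731, 4.71 and 4.62 CPM with calcipotriol, with negative log2 fold changes for all 4 in edgeR. In limma-voom that of Tnnt3 was positive, at 0.43 where edgeR gave -1.20. On adjusted p 0 of them passed in edgeR, DESeq2 or limma-voom, and 1 had an unadjusted p under 0.05 in edgeR. Ckm and Myh4 were at 0 in EtOH replicates 1 and 2 and in calcipotriol replicate 1. Myh4 was also at 0 in calcipotriol replicate 5, Acta1 in calcipotriol replicate 1 and Tnnt3 in EtOH replicate 2. The part of these cells in the level of Tnfrsf21 was not tested.

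Tnfrsf1a, the main receptor of soluble Tnf, was at 151, 114, 137 and 143 CPM with EtOH and at 169.6, 132, 137 and 135 CPM with calcipotriol. The groups overlapped, with calcipotriol replicate 1 the highest. Its log2 fold change was 0.0736 ± 0.13 (SE, with adjusted p = 0.820 in edgeR). Tnfrsf10b, the death receptor for Tnfsf10 in the mouse, was at 16.1, 14.6, 20.2 and 21.6 CPM with EtOH and at 19.4, 14.1, 13.1 and 13.8 CPM with calcipotriol. Calcipotriol replicates 5, 6 and 7 lay just below the lowest EtOH value and replicate 1 within the EtOH range. Its log2 fold change was -0.26 ± 0.20 (SE, with adjusted p = 0.521 in edgeR), and -0.41 without calcipotriol replicate 1 (adjusted p = 0.252 from edgeR). Fas was at 4.12 ± 2.51 CPM (SD, n = 4) with EtOH and 7.46 ± 2.22 CPM with calcipotriol, and its log2 fold change was 0.86 ± 0.42 (SE, with adjusted p = 0.312 in edgeR). Tnfrsf25 (DR3), the receptor of Tnfsf15, had a log2 fold change of 0.62 ± 0.35 (SE, with adjusted p = 0.373 in edgeR). Edar, the ectodysplasin receptor, had 5 counts in calcipotriol replicate 1 and 0 in the other tumors.

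Among the TRAF-binding receptors, 11 of 15 were tested, 6 with a positive and 5 with a negative log2 fold change. Ltbr (chr6:125306571-125313885, reverse strand), the lymphotoxin β receptor that drives noncanonical NF-κB signaling, was at 84.2, 69.4, 75.5 and 77.1 CPM with EtOH and at 91.9, 89.5, 95.2 and 91.5 CPM with calcipotriol. The treated tumors were within a narrow range just above the EtOH-treated tumors. This was a log2 fold change of 0.27 ± 0.11 (SE, with adjusted p = 0.221 in edgeR), with 0.134 as the adjusted p from DESeq2 and 0.201 from limma-voom. Tnfrsf4 (OX40), a costimulatory receptor of T cells, had 2, 0, 7 and 10 counts with EtOH and 17, 21, 20 and 15 with calcipotriol. All treated tumors were higher, at counts too low for a firm fold, and the log2 fold change was 1.93 ± 0.93 (SE, with adjusted p = 0.301 in edgeR). It was 2.58 without EtOH replicate 4 (adjusted p = 0.240 from edgeR) and 1.53 without EtOH replicate 2 (adjusted p = 0.406 from edgeR).

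Tnfrsf9 (4-1BB), another costimulatory receptor, was at 16.2, 17.4, 44 and 46.5 CPM with EtOH and at 129, 38.8, 41.2 and 35.1 CPM with calcipotriol. EtOH replicates 3 and 4 lay slightly above calcipotriol replicates 5, 6 and 7, and calcipotriol replicate 1 lay far above the rest. Its log2 fold change was 0.97 ± 0.49 (SE, with adjusted p = 0.320 in edgeR), and 0.30 without calcipotriol replicate 1 (adjusted p = 0.689 from edgeR). Cd40, the receptor through which helper T cells activate antigen-presenting cells, was at 4.28, 2.82, 5.67 and 4.01 CPM with EtOH and at 7.55, 2.15, 1.73 and 1.36 CPM with calcipotriol. Calcipotriol replicate 1 was the highest tumor and the other 3 treated tumors were the lowest. Its log2 fold change was -0.39 ± 0.55 (SE, with adjusted p = 0.758 in edgeR), and -1.26 without calcipotriol replicate 1 (adjusted p = 0.103 from edgeR).

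The summed markers of dendritic cells and of T cells were also highest in calcipotriol replicate 1, though not every marker was. Itgax and Zbtb46 peaked there, while Ccr7 was at its lowest there and Flt3 and Xcr1 peaked in EtOH replicate 4. Of the T cell markers, Cd3d had 1 count in calcipotriol replicate 1 and peaked in calcipotriol replicate 5, with 23 counts. The 5 dendritic cell markers, with Itgax the most abundant, summed to 12.2, 16.9, 8.26 and 13.7 CPM with EtOH and to 23.9, 6.12, 8.03 and 8.65 CPM with calcipotriol. Of the 3 tested, 1 had a positive and 2 had a negative log2 fold change. On adjusted p 0 passed in edgeR, DESeq2 or limma-voom, and 1 had an unadjusted p under 0.05 in edgeR. Itgax, in the fit without calcipotriol replicate 1, passed both thresholds as lower, at a log2 fold change of -2.21 (adjusted p = 0.0179 from edgeR) where it was -0.45 with all tumors. Zbtb46 had every treated tumor above every EtOH-treated tumor, with a log2 fold change of 1.13 ± 0.38 (SE, with adjusted p = 0.148 in edgeR) and of 0.95 without calcipotriol replicate 1 (adjusted p = 0.226 from edgeR). Flt3 was at 0 in calcipotriol replicate 7. The 6 T cell markers, with Cd2 the most abundant, summed to 2.19, 2.58, 0.851 and 0.176 CPM with EtOH and to 11.5, 3.38, 2.93 and 2.12 CPM with calcipotriol. All 3 that were tested had positive log2 fold changes, with 0 past adjusted p in any of these tools and 0 with an unadjusted p under 0.05 in edgeR. In edgeR without calcipotriol replicate 1, Cd3g went from 1.88 to -0.11, Cd3e from 2.32 to 1.81 and Cd2 from 1.14 to 0.63. Cd4, too low to be tested, had 0, 6, 6 and 1 counts with EtOH and 26, 12, 10 and 9 with calcipotriol, with every treated tumor higher. Cd3e was at 0 in EtOH replicates 1, 3 and 4, Cd8a in EtOH replicates 3 and 4 and calcipotriol replicate 7, Cd4 in EtOH replicate 1, and Cd3d and Cd3g in EtOH replicate 4. The part of these cells in the values of Tnfrsf4, Tnfrsf9 and Cd40 was not tested.

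**Figure D2:**
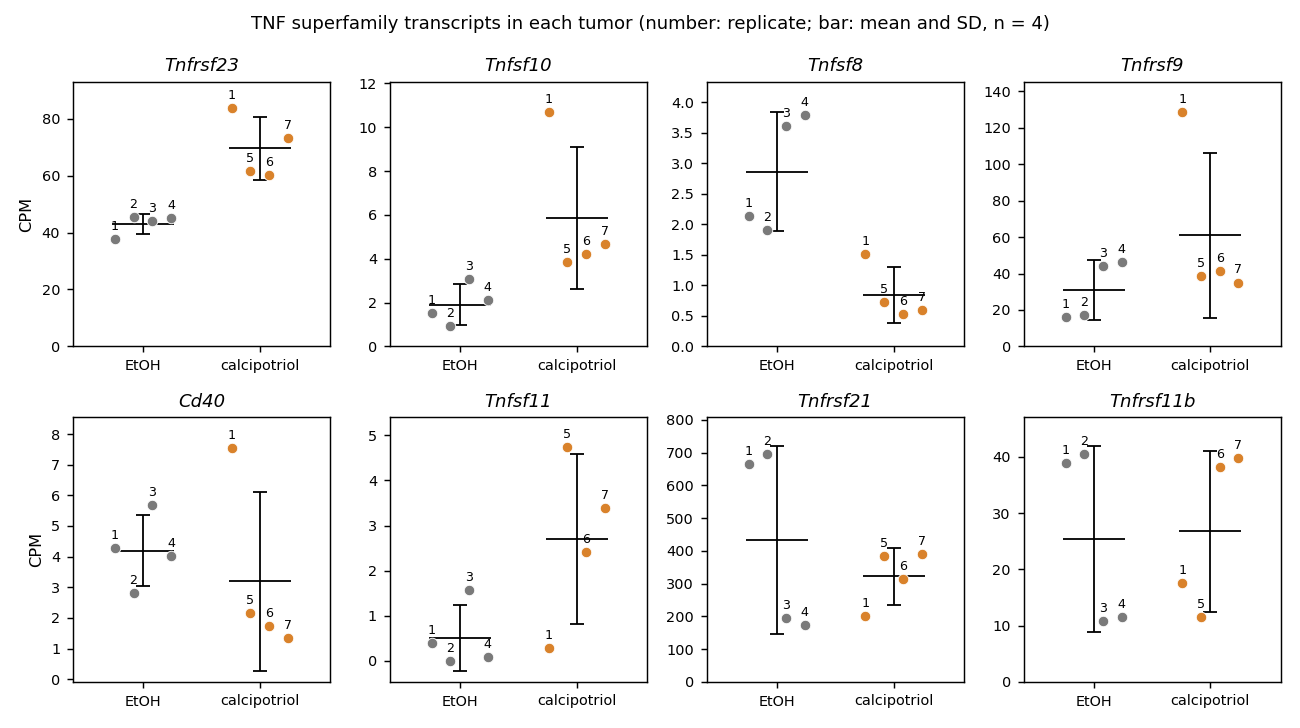
CPM of 8 members in each tumor (numbers give the replicate), with the mean and SD of each group of 4. Tnfrsf23, Tnfsf10 and Tnfsf8 separate the groups, calcipotriol replicate 1 is high for Tnfrsf9 and Cd40, and EtOH replicates 1 and 2 are apart from 3 and 4 for Tnfrsf21 and Tnfrsf11b.

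Tnfrsf12a (Fn14), the receptor of Tnfsf12, was at 102, 63.5, 156 and 210.0 CPM with EtOH and at 163, 166, 218 and 122 CPM with calcipotriol. The groups overlapped widely and the log2 fold change was 0.33 ± 0.32 (SE, with adjusted p = 0.636 in edgeR). Tnfrsf1b, the second Tnf receptor, ranged from 96.7 to 107 CPM with EtOH and from 94.6 to 125 CPM with calcipotriol, for a log2 fold change of 0.0511 ± 0.12 (SE, with adjusted p = 0.868 in edgeR). Tnfrsf11a (RANK) was at 6.57, 8.86, 13.2 and 9 CPM with EtOH and at 9.1, 4.8, 4.47 and 5.17 CPM with calcipotriol. Tnfrsf13b (TACI), which binds Tnfsf13 and Tnfsf13b, was at 5.93, 8.81, 10.7 and 5.69 CPM with EtOH and at 8.38, 1.69, 3.27 and 3.65 CPM with calcipotriol. In both Tnfrsf11a and Tnfrsf13b, calcipotriol replicate 1 lay inside the EtOH range and the other 3 treated tumors lay below it. Their log2 fold changes were -0.67 ± 0.31 (SE, with adjusted p = 0.282 in edgeR) and -0.87 ± 0.45 (SE, with adjusted p = 0.337 in edgeR). With that tumor left out they were -0.96 (adjusted p = 0.0787 from edgeR) and -1.44 (adjusted p = 0.0521 from edgeR). Tnfrsf14 (HVEM), a receptor of Tnfsf14, Tnfrsf18 (GITR) and Eda2r had log2 fold changes of -0.64, 0.26 and -0.26, with standard errors of 0.41, 0.56 and 0.25. Of the exon bases of Tnfrsf18, 27.2% lie in an antisense gene, so its count is uncertain.

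Unlike Tnfrsf13b, a pair of other receptors of B lineage cells were near the limit of detection. Tnfrsf13c (BAFF receptor) had 1 count, in calcipotriol replicate 6, and Tnfrsf17 (BCMA) had 6, in calcipotriol replicate 7. The 5 B cell markers, with Cd79b the most abundant, were all too low to be tested, and summed to 1.9, 1.17, 1.38 and 2.69 CPM with EtOH and 0.397, 0.685, 0.865 and 1.14 CPM with calcipotriol. Cd79a had 14, 8, 12 and 14 counts with EtOH and 0, 1, 0 and 3 with calcipotriol. Pax5 went the other way, with 9, 0, 6 and 0 counts with EtOH and 2, 5, 11 and 20 with calcipotriol. Ms4a1 was at 0 in EtOH replicates 1, 2 and 3 and calcipotriol replicates 1, 5 and 6. Tnfrsf19 (TROY) totaled 15 counts with EtOH and 35 with calcipotriol and was not tested.

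Without calcipotriol replicate 1, 33 members were tested and 1, Tnfsf8, passed both thresholds of edgeR, against 4.33% of all genes. On adjusted p alone Tnfsf8 and Tnfrsf23 passed, against 6.72% of all genes. In 5 members (Tnfsf11, Tnfrsf4, Ltbr, Tnfrsf23 and Tnfsf10) every treated tumor was then above every EtOH-treated tumor, as in 11.0% of all genes. In 7 (Tnfrsf13b, Cd40, Tnfrsf10b, Tnfrsf11a, Tnfsf8, Tnfsf13 and Tnfsf12) every treated tumor was below, as in 12.0% of all genes. With EtOH, Tnfsf11 had 8, 0, 39 and 2 counts and Tnfrsf4 had 2, 0, 7 and 10. Both were therefore tested only because of the treated tumors, and their patterns carry no weight here.

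Among the decoy receptors was Tnfrsf23, the 1 member that edgeR called on adjusted p. Tnfrsf23 (chr7:143665809-143685872, reverse strand) encodes a decoy receptor that binds Tnfsf10 in the mouse. Its level was 37.8, 45.6, 43.9 and 45.1 CPM with EtOH and 83.8, 61.5, 60.2 and 73.1 CPM with calcipotriol. The EtOH-treated tumors were close together, and each calcipotriol-treated tumor was higher. The means were 43.1 ± 3.57 CPM (SD, n = 4) and 69.7 ± 11.1 CPM (SD, n = 4), a 1.62-fold difference. The log2 fold change was 0.69 ± 0.14 (SE, with adjusted p = 0.0305 in edgeR), with adjusted p of 0.000580 from DESeq2 and 0.0322 from limma-voom. In fits that each left out 1 tumor, the log2 fold change was 0.59 to 0.76 and the adjusted p from edgeR 0.0297 to 0.0957. Only the fit without calcipotriol replicate 1 kept the call. Of the exon bases of Tnfrsf23, 4.14% lie in the antisense gene E230032D23Rik.

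Tnfrsf22, the neighboring decoy receptor for the same ligand, was at 23.7, 27.7, 32.4 and 28.8 CPM with EtOH and at 38.3, 35.7, 30.1 and 35.4 CPM with calcipotriol. The lowest treated tumor, replicate 6, lay under EtOH replicate 3, so the groups overlapped (log2 fold change 0.31 ± 0.14, SE, and adjusted p = 0.285 in edgeR). The transcripts of these genes are similar, and 18% of the 50-base stretches of Tnfrsf23 also occur in Tnfrsf22, so reads could be shared between them. Summing both genes, in an alternative chosen after seeing the data, gave a log2 fold change of 0.55 (adjusted p = 0.0548 from edgeR), which did not pass. Tnfrsf26, in the same cluster on chromosome 7, had a log2 fold change of -0.27 ± 0.35 (SE, with adjusted p = 0.740 in edgeR). Tnfrsf11b (osteoprotegerin), a soluble decoy for Tnfsf11 that also binds Tnfsf10, was at 38.9, 40.5, 10.9 and 11.5 CPM with EtOH and at 17.6, 11.5, 38.2 and 39.7 CPM with calcipotriol. High and low tumors occurred in both groups, and the log2 fold change was 0.0749 ± 0.51 (SE, with adjusted p = 0.957 in edgeR).

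Downstream of the receptors, 31 of 32 adaptor and kinase genes were tested, 16 with a positive and 15 with a negative log2 fold change. Their median was 0.00515. By edgeR 1 of 31 passed on adjusted p, against 2.74% of all genes. This was Chuk, which encodes the kinase IKKα. Chuk was at 30.2, 25.6, 40.3 and 37.4 CPM with EtOH and at 52.2, 74.4, 55.6 and 53 CPM with calcipotriol. Every treated tumor was higher, and the log2 fold change was 0.82 ± 0.18 (SE, with adjusted p = 0.0419 in edgeR). In the fits that left out 1 tumor its log2 fold change was 0.68 to 0.92, its adjusted p from edgeR was 0.0271 to 0.108, and 1 of 8 fits kept the call. Ikbkg, the regulatory subunit of the same kinase complex, also had every treated tumor higher, with a log2 fold change of 0.58 ± 0.16 (SE, with adjusted p = 0.0874 in edgeR), as did Traf3, at 0.31 ± 0.12 (SE, with adjusted p = 0.218 in edgeR). Traf4 was the 1 gene of the list with every treated tumor lower, at -0.40 ± 0.12 (SE, with adjusted p = 0.107 in edgeR). The shares of all genes with these patterns are 6.32% higher and 6.16% lower. DESeq2 called Chuk, Ikbkg and Traf4 on adjusted p, 3 of 31 against 8.21% of all genes. Traf1, an adaptor used by Tnfrsf9, was at 17.1, 17.7, 11.6 and 14.1 CPM with EtOH and at 28.1, 6.62, 8.12 and 6.4 CPM with calcipotriol. As with Cd40, calcipotriol replicate 1 was the highest tumor and the other 3 treated tumors the lowest. For Traf1 the log2 fold change was -0.30 ± 0.45 (SE, with adjusted p = 0.780 in edgeR), and -1.10 without calcipotriol replicate 1 (adjusted p = 0.0191 from edgeR).

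All 27 NF-κB subunits, inhibitors and feedback genes were tested, 13 with a positive and 14 with a negative log2 fold change, and a median of -0.0249. In 3 of the 27, Nfkbiz and Nfkbia among them, every treated tumor lay above every EtOH-treated tumor, as in 6.32% of all genes. In 0 of the 27 every treated tumor lay below, a pattern shown by 6.16% of all genes. By edgeR 1 of 27 passed on adjusted p, against 2.74% of all genes. This was Nfkbiz, which encodes the nuclear inhibitor family protein IκBζ. Nfkbiz was at 68.1, 42.2, 50.8 and 58.4 CPM with EtOH and at 83.2, 125, 109 and 119 CPM with calcipotriol. The groups did not overlap, and the log2 fold change was 0.99 ± 0.18 (SE, with adjusted p = 0.0201 in edgeR), just under the fold threshold. Of the 8 fits that left out 1 tumor, 3 kept this call, and over the 8 fits the log2 fold change was 0.88 to 1.11 and the adjusted p from edgeR 0.00528 to 0.0662. Nfkbia, the inhibitor IκBα and itself an NF-κB target, was at 98.7, 89.5, 108 and 117 CPM with EtOH and at 124, 211, 175 and 168 CPM with calcipotriol. The treated tumors were all higher, and the log2 fold change was 0.71 ± 0.17 (SE, with adjusted p = 0.0510 in edgeR), with 0.00250 as the adjusted p from DESeq2 and 0.0502 from limma-voom. Counting Nfkbiz and Nfkbia, DESeq2 called 4 of the 27, against 8.21% of all genes. The others were Sod2, with adjusted p of 0.0329 in DESeq2 and 0.106 in limma-voom, and Bcl2a1a, with 0.0195 and 0.210. For Bcl2a1a, a survival gene related to Bcl2, the groups overlapped and the log2 fold change was -1.89 ± 0.58 (SE, with adjusted p = 0.115 in edgeR). Without calcipotriol replicate 1, 3 genes of this list were higher on adjusted p (Nfkbia, Nfkbiz and Sod2) and 2 were lower (Icam1 and Bcl2a1b), where 6.72% of all genes passed. Of these, Nfkbiz, at 1.10, Icam1 and Bcl2a1b passed both thresholds, against 4.33% of all genes. Of the 6 genes that shed or process family ligands and receptors, 5 were tested, all with negative log2 fold changes between -0.27 and -0.0289. On adjusted p 0 of these passed in edgeR, DESeq2 or limma-voom, and 0 had an unadjusted p under 0.05 in edgeR. Adam17, the enzyme that releases Tnf from the membrane, was at 93.6 ± 9.78 CPM (SD, n = 4) with EtOH and 81.8 ± 14.6 CPM with calcipotriol.

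The other marker lists give RNA levels of cell type markers in the same tumors. All 5 erythroid markers were lower with calcipotriol past both thresholds, and summed to 5595, 5834, 3509 and 3455 CPM with EtOH and 820.2, 434, 609 and 532 CPM with calcipotriol. Of 6 epithelial markers, 3 had positive and 3 negative log2 fold changes in edgeR. Krt14 was higher past both thresholds and Krt18 was lower on adjusted p alone, with log2 fold changes of 5.17 (adjusted p = 0.0336 from edgeR) and -0.93 (adjusted p = 0.0162 from edgeR). In limma-voom the adjusted p was 0.446 for Krt14 and 0.0137 for Krt18, while the log2 fold change of Krt14 there was 5.09. Without calcipotriol replicate 1, Krt18 passed both thresholds of edgeR, at -1.02 (adjusted p = 0.00585), and Krt8 passed on adjusted p, at -0.89 (adjusted p = 0.0115 from edgeR). Of the adipocyte markers, Fabp4 was lower and passed both thresholds, at a log2 fold change of -1.19 (adjusted p = 0.00820 from edgeR). Adipoq, the other adipocyte marker tested, had a log2 fold change of 0.80 ± 1.43 (SE, with adjusted p = 0.818 in edgeR). The epithelial markers, with Krt8 the most abundant, summed to 1252, 1322, 1009.6 and 1077 CPM with EtOH and 890.3, 601, 721 and 643 CPM with calcipotriol, and Epcam was at 0 in EtOH replicates 1 and 2. The 3 adipocyte markers, with Fabp4 the most abundant, summed to 28.4, 33.5, 30.7 and 32.9 CPM with EtOH and 12.9, 14.9, 19 and 12 CPM with calcipotriol, and Fabp4 made up most of the sum in every tumor. Adipoq was at 0 in EtOH replicates 1 and 2 and calcipotriol replicate 1, and Plin1 in EtOH replicates 1 and 2 and calcipotriol replicate 7. Of the 19 tested genes on the fibroblast, neutrophil, mast cell, NK cell, regulatory T cell and plasma cell lists, 0 passed on adjusted p in edgeR. At an unadjusted p under 0.05 there were 5 of the 19, against 18.4% of all genes. DESeq2 gave 2 of the 19 on adjusted p, Kit and Ctla4, against 8.21% of all genes, and limma-voom 0, against 2.73%. With calcipotriol replicate 1 left out, edgeR called Dcn higher and Kit lower past both thresholds, where 4.33% of all genes passed. The 4 regulatory T cell markers, with Ikzf2 the most abundant, summed to 10.1, 8.52, 7.13 and 7.41 CPM with EtOH. With calcipotriol they summed to 10.9, 10.8, 13.6 and 16.4 CPM. Of these markers 3 were tested, all with positive log2 fold changes, and 0 passed on adjusted p in edgeR or limma-voom. The part of erythroid, epithelial, adipocyte and regulatory T cell content in the values of the family was not tested.

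The promoters of the 4 members with an unadjusted p under 0.05 are shown because these members had the lowest p of the family, although their share, 4 of 32, lies below that of all genes and only Tnfrsf23 passed on adjusted p in edgeR. A window of 300 bases, 250 before and 50 after the start, was found for 31 of the 39 members in RefSeq (GRCm38.p6), 35 windows in all. Capitals mark a match on either strand. Searched on both strands were TTCNNNGAA, which STAT factors can bind, TGANTCA, which AP-1 factors can bind, TATAAA, a core promoter motif, the κB consensus and the vitamin D response element consensus.
Tnfrsf23 promoter, chr7:143685826-143686125, reverse strand, 5′ to 3′: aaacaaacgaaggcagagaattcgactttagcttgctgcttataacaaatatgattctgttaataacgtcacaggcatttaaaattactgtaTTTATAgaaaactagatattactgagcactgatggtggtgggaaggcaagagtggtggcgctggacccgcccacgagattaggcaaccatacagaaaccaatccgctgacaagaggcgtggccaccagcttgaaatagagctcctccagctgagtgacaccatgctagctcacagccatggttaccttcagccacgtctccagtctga
Tnfsf10 promoter, chr3:27316827-27317126, forward strand, 5′ to 3′: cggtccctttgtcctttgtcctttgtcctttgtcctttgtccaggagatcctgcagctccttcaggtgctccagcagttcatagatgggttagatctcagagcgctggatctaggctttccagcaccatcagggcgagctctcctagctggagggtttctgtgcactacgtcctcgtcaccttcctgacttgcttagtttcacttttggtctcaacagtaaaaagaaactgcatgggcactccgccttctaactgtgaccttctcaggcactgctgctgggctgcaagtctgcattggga
Tnfsf8 promoter, chr4:63861235-63861534, reverse strand, 5′ to 3′: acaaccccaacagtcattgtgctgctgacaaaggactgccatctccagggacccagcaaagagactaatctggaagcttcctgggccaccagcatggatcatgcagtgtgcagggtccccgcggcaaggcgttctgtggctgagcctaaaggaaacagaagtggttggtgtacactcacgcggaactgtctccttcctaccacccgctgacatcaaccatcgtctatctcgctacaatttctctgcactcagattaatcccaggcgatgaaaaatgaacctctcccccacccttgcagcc
Ltbr promoter, chr6:125313836-125314135, reverse strand, 5′ to 3′: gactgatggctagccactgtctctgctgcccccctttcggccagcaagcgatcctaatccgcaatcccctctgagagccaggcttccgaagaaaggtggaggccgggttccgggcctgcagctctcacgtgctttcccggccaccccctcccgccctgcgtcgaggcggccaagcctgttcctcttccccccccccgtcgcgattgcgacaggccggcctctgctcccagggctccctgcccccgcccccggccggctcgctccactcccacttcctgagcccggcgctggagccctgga
In these 4 windows, Tnfrsf23 held TATAAA on the opposite strand. Tnfsf10, Tnfsf8 and Ltbr held none of the motifs. Over all 32851 promoter windows, TATAAA occurred in 13.6%, TTCNNNGAA in 8.3%, TGANTCA in 7.81%, the κB consensus in 4.51% and the vitamin D response element consensus in 0.0396%. Among the 31 members, the κB consensus was found in 3 (Ltb, Tnfrsf8 and Tnfrsf9), with its matches in Tnfrsf9 overlapping each other, and the vitamin D response element consensus in 0. TTCNNNGAA was found in 9 of the 31, TATAAA in 7 and TGANTCA in 6. Counted by window, as the shares above are, TTCNNNGAA was in 9 of the 35 windows of members. TATAAA was in 7 of these windows, TGANTCA in 7 and the κB consensus in 3. A match describes letters in a window and does not show that a factor binds there.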

How the data were processed

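RNA-Seq libraries of 8 tumors were sequenced by the authors, who deposited estimated counts per Ensembl gene with no scaling between tumors. The submitters' processing notes name STAR 2.5.3, RSEM 1.3.1, DESeq2 1.24.0 and GRCm38, with no role or order, and the annotation version and the strand setting of the counting are not given in the sources used here. The labels name a NovaSeq sequencer and the study's methods a HiSeq. The estimated counts were rounded to whole numbers, because the design assumed counts. Symbols and positions came from GENCODE M21 (GRCm38), which matched 52081 of 55414 identifiers. The table has 0 columns of other samples.

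Tests ran in R 4.3.3. In edgeR 4.0.16, low counts were removed with filterByExpr, libraries were scaled by TMM, and glmQLFit and glmQLFTest were applied, with Benjamini-Hochberg adjustment over all genes tested. The standard error is the absolute log2 fold change divided by the square root of F. Alternatives were DESeq2 size factors, no filter, at least 10 counts in every tumor, DESeq2 1.42.0 without independent filtering, voom from limma 3.58.1, glmTreat and each tumor left out. The scripts were tested on simulated data. Every member is named. Values in every tumor were required for members past adjusted p 0.05, or with groups that do not overlap and a mean of at least 20 counts, and list genes past adjusted p 0.05 were named. Other genes given in every tumor were chosen after their values were seen. The members and gene lists were chosen with earlier results of these data known.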

Additional observations from a re-analysis of the deposited data

Results flagged for a closer look

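Tumors were compared on log2 CPM with a prior count of 2, while the values printed below are CPM, on which the ratios would differ. On the log2 scale, a tumor was picked out by its gap to the nearest tumor of its group, divided by the range of the group. The limit was 0.829, the 95% critical value of Dixon's test for 4 samples. Of 64 groups examined (32 members in 2 groups of tumors), 4 were past it, and chance alone marks about 1 in 20 groups, or 3.2 here. In 3 of the 4 the tumor was calcipotriol replicate 1. Tnfrsf9 was at 129 CPM there, while the rest of that group spanned 35.1 to 41.2 CPM. Tnfrsf1a was at 169.6 CPM against 132 to 137 CPM, and Tnfrsf1b was at 125 CPM against 94.6 to 98.8 CPM. The fourth was Tnfrsf25 in EtOH replicate 4, at 6.53 CPM against 2.82 to 3 CPM in the other EtOH-treated tumors.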

How the results depend on the processing

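The number of all genes past both thresholds, 292, was 458 with no filter on low counts and 644 with DESeq2, and 110 to 642 when 1 tumor was left out. Members past both thresholds numbered 0 with edgeR, 2 with DESeq2 and 0 to 1 when 1 tumor was left out. Members past adjusted p alone numbered 1 with edgeR, 3 with DESeq2 and 0 to 2 when 1 tumor was left out. Of the fits that left out 1 tumor, the one without calcipotriol replicate 1 gave 642 genes past both thresholds and the others 110 to 233. The causes of these moves were not tested.

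Of 37 genes followed, 32 kept their direction in every alternative that tested them. The other 5 changed direction only in fits that left out 1 tumor, where the log2 fold change of Tnfsf4 was -1.34 to 0.0769, of Tnfsf18 -0.0266 to 0.96, of Tnfrsf1a -0.0175 to 0.13, of Tnfrsf1b -0.0496 to 0.0965 and of Tnfrsf11b -0.18 to 0.39. With at least 10 counts in every tumor, only 31 of the 37 were tested. DESeq2 size factors in place of TMM moved the median log2 fold change of all genes by 0.00435. Without the filter on low counts that median was 0.11. edgeR's glmTreat, with 1 as the minimum log2 fold change, called 22 genes and 0 members. No paired analysis was possible because the groups share only replicate number 1.

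At these depths, members with a mean under 20 counts a tumor (Tnfrsf4, Tnfsf4, Tnfsf18 and Ltb among them) have standard errors too wide for small differences to be seen.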
